A study of Mus musculus with 34 samples.

Results

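The mouse Zfp genes are named for the zinc fingers of their proteins. All gene symbols in the deposited peak tables that begin with Zfp and a digit were taken, with Zfp42, a pluripotency marker, left out. This gave 234 of the 18835 symbols that the tables name as the nearest gene of a peak. A start point, the position from which the authors measured distances, could be worked out for 215 of them, against 16001 of all symbols. It is the peak summit plus or minus the stated distance to the nearest gene, where at least 2 peaks agree. A gene that few peaks name as nearest has no start point, which raises the shares given here for all genes. Of these 215 genes, 75 lay in 15 clusters of at least 3 Zfp genes within 500 kb, and 140 lay outside. Chromosome 7 carried 60 of the 215 genes and 46 of the 75 clustered ones.

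The study mapped FLAG-tagged coactivators by chromatin immunoprecipitation and sequencing in mouse embryos of day 11.5 and in embryonic stem cells (ESC). SMARCA4, the ATPase of the SWI/SNF remodelling complex, was followed in 8 sources: heart, limb, face, ESC, neural tube and the 3 brain regions forebrain, midbrain and hindbrain. SMARCC2, another SWI/SNF subunit, was followed in face and hindbrain, the acetyltransferase EP300 in face and ESC, and NCOA1 and NCOA2, coactivators of nuclear receptors, in hindbrain. Marks of active starts (H3K4me3), of active elements (H3K27ac, limb alone), of enhancers and start flanks (H3K4me1) and of Polycomb repression (H3K27me3) were mapped in limb and forebrain. Of 34 samples, 30 peak lists were used: 14 FLAG lists, 6 FLAG controls, 7 histone lists and 3 histone inputs. Another 4 samples, the SMARCA4 controls of limb, heart, neural tube and forebrain, were not analysed here. The tagged embryos and ESC are labelled 129/C57BL/6, and the genotype label gives a SMARCA4/FLAG knock-in for every FLAG sample, also those of the other 4 proteins. Histone samples came from CD1 embryos, and tissue was pooled from about 150 or 300 male and female embryos. The SMARCA4 hindbrain sample carries the tissue tag forebrain but is treated as hindbrain because its title says so. The SMARCA4 ESC sample is described as pooled embryos, and heart and hindbrain stand in the histone protocol where the samples are limb and forebrain.

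Each condition had 1 library, so no test was possible, every comparison is between these libraries, and the intervals given are exact 95% binomial (Clopper-Pearson) intervals that cover counting error only. Lists held between 495 and 58181 peaks, and shares are therefore compared between genes within a list. SMARCA4 peaks lay within 100 kb of every placed marker gene of the labelled tissue (2 to 4 genes a tissue), except in limb, where 1 of 2 placed markers had one. They also lay near markers of other tissues. The face list had peaks near every placed marker of every tissue, and the forebrain list near 4 of 4 heart and 4 of 4 ESC markers. This check therefore does not establish the tissue labels. The erythroid markers had no start point.

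Most Zfp proteins carry arrays of C2H2 zinc fingers, each of which reads a few bases of DNA. Many also carry a KRAB domain, which recruits the corepressor TRIM28 and through it histone methylation that silences retroelements. Such KRAB genes arise by tandem duplication and form clusters in mammalian genomes. A few members are unrelated in function: Zfp36 and its paralogues have CCCH fingers and bind AU-rich RNA. Some symbols match RefSeq genes that now bear other names. Among them are Zfp289 (Arfgap2), Zfp294 (Ltn1), Zfp313 (Rnf114), Zfp364 (Rnf115) and Zfp650 (Ubr3). They were counted by their symbol, so the set is not one of C2H2 factors alone.

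Promoter sequences from RefSeq, build GRCm38.p6, show what the starts look like at both ends of the range that the peak lists span. They are the 250 bases before the RefSeq start, on the gene's strand. Zfp143 and Zfp341 had peaks in 9 FLAG lists, Zfp30 and Zfp82 belong to the largest cluster, Zfp503 carried limb H3K27me3, and Zfp352 had no peak within 1 kb in any list. Capitals mark matches, on either strand, to 9 motifs common in mammalian promoters. These are the NRF1 motif GCATGCGC, the ETS motif CCGGAAG, the GC box GGGCGG, the YY1 motif AAGATGGC, the cyclic AMP element TGACGTCA, the E-box CACGTG, the CCAAT box, the TATA box TATAAA and the BANP motif CTCGCGAG.
Zfp143, chr7:110061452-110061701, plus strand: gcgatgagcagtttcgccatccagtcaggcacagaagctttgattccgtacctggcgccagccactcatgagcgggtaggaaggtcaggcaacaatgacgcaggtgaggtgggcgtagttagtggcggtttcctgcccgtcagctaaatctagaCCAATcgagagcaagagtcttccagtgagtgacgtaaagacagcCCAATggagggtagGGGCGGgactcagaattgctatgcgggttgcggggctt
Zfp341, chr2:154613118-154613367, plus strand: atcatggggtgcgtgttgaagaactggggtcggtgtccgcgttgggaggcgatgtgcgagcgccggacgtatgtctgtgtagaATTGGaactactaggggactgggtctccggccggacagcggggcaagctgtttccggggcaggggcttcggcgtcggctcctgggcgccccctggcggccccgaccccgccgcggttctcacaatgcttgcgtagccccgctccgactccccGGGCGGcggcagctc
Zfp30, chr7:29783718-29783967, plus strand: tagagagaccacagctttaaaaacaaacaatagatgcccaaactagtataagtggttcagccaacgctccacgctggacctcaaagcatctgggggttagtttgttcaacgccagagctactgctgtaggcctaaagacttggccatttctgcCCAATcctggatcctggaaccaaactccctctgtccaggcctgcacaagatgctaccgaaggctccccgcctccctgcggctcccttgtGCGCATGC
Zfp82, chr7:30072824-30073073, minus strand: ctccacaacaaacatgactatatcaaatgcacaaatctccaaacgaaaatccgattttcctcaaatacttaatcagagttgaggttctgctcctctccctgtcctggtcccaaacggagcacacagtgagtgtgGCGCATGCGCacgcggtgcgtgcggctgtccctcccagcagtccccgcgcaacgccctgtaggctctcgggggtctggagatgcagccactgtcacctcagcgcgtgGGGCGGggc
Zfp503, chr14:21989602-21989851, minus strand: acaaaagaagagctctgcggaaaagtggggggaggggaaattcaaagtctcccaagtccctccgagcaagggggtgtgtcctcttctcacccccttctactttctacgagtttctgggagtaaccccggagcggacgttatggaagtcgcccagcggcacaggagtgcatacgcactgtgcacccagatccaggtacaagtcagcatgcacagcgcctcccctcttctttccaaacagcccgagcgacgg
Zfp352, chr4:90218570-90218819, plus strand: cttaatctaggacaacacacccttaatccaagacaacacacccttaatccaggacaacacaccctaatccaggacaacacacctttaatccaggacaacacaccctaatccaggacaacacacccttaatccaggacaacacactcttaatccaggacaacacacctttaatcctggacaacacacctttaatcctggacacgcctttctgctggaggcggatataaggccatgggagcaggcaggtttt

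Zfp143, an activator that itself binds promoters, had CCAAT at 96 and 52 bases before the start and GGGCGG at 38. Zfp341, known in humans for driving STAT3 expression, had GGGCGG at 15 bases and CCAAT on the other strand at 167. The clustered pair Zfp30 and Zfp82 both held GCATGCGC, at 8 bases on the other strand in Zfp30 and on both strands, overlapping itself, at 116 and 114 bases in Zfp82. The other 8 promoters of their cluster in the table did not hold it, and 4 of 62 promoters of clustered genes did, 6.45%. GCATGCGC was present in 2.32% of the 27025 promoters of this length, against 32.9% for GGGCGG and 34.5% for CCAAT. These 27025 also cover genes without a start point. With the 50 bases after the start included, GCATGCGC was in 8.06% of clustered promoters and 2.8% of all. Other protein-coding genes with a start point and a promoter then had it at 5.01%. Zfp503 and Zfp352 held none of the 9 motifs, which says only that these letters are not in the window. The bases before Zfp352, a gene known from the cleavage-stage embryo, repeat a short unit whose letters CAACACAC occur 9 times, and no other promoter in the table held them more than once. This unit was chosen after the sequence was seen. Motif matches are descriptions and not sites, and 170 of the 215 genes, 79.1%, had a promoter in the table, too few for a check of base composition over the whole set.

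Zfp starts were marked as active. Limb H3K4me3 lay within 1 kb of the start point of 192 of 215 Zfp genes, 89.3% (84.4% to 93.1%), against 82.2% (81.5% to 82.8%) of 12696 other protein-coding genes and 74.7% of all placed genes. Forebrain H3K4me3 lay at 188, 87.4% (82.3% to 91.6%), against 80.9% of other protein-coding genes and 73.4% of all. Limb H3K27ac lay at 171, 79.5% (73.5% to 84.7%), against 60.6% (59.7% to 61.4%) and 55.1%. H3K4me1 showed no such excess. It lay at 154 in limb, 71.6%, against 76.2% of other protein-coding genes and 71.5% of all, and at 136 in forebrain, 63.3%, against 66.1% and 61.3%.

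Polycomb was rare at the same starts. Limb H3K27me3 lay at 24 Zfp genes, 11.2% (7.28% to 16.2%), against 31.8% (31.0% to 32.6%) of other protein-coding genes and 29.1% of all placed genes. Forebrain H3K27me3 lay at 10, 4.65% (2.25% to 8.39%), against 20.7% and 18.9%. The forkhead genes, another family of DNA-binding factors, had limb H3K27me3 at 72.7% of 33 genes, and ribosomal protein genes at 5.97% of 67. Among genes with limb H3K4me3 the Zfp share was 22.6 percentage points below that of other protein-coding genes (Newcombe interval 17.1 to 27 points below), and the H3K27ac share was 16.0 points above (10.6 to 20.3). Of the 3 histone inputs, the limb input for H3K27ac had peaks at 2 Zfp starts (0.606% of all genes), and the other limb input (0.519%) and the forebrain input (0.0375%) at 0 of 215, which allows a share of up to 1.7%.

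**Figure D1:**
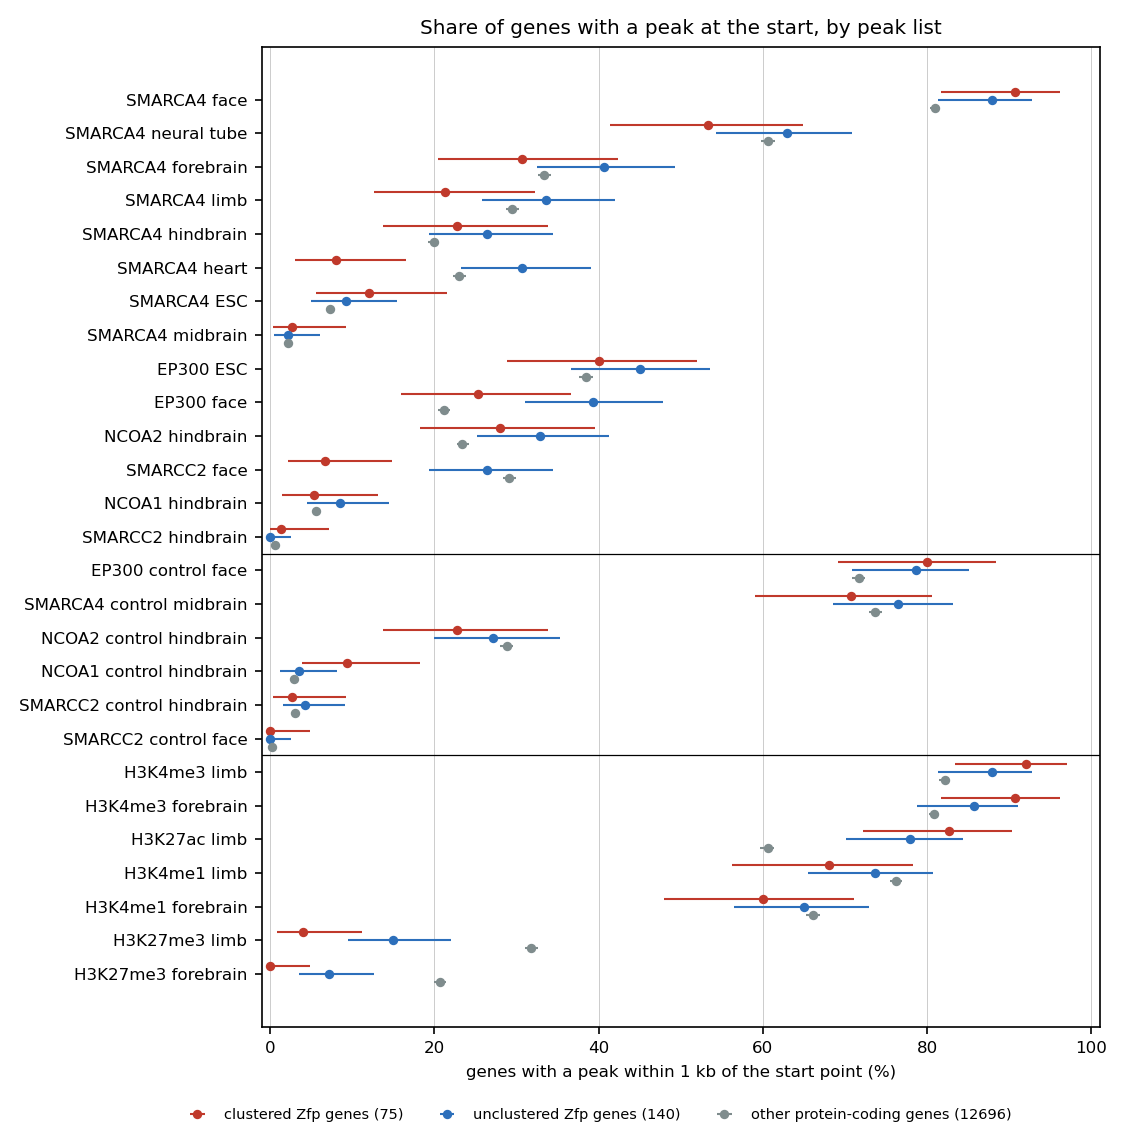
Share of genes with a peak within 1 kb of the start point (x axis, percent) in each of 27 lists (y axis; FLAG, control and histone lists parted by lines). Points are clustered Zfp genes (red), unclustered Zfp genes (blue) and other protein-coding genes (grey), bars are exact 95% intervals, and the red points fall to 6.67% in SMARCC2 face and 8.0% in SMARCA4 heart, left of the blue ones.

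H3K4me3 hardly differed between the tissues, at Zfp genes as at all genes. It lay at 188 Zfp genes in both limb and forebrain, at 4 in limb alone and at 0 in forebrain alone, and 23 had it in neither. Over all placed genes 72.0% had it in both, 2.7% in limb alone and 1.43% in forebrain alone. Limb H3K27me3 shared the start with limb H3K4me3 at 23 of its 24 Zfp genes, 95.8% (78.9% to 99.9%), near the 89.4% of other protein-coding genes with limb H3K27me3. It shared it with H3K27ac at 14, which is 58.3% (36.6% to 77.9%) against 32.9% of other protein-coding genes with limb H3K27me3. H3K27me3 was present in both tissues at 8 Zfp genes, in limb alone at 16 and in forebrain alone at 2, which is 3.72%, 7.44% and 0.93%, against 16.6%, 12.4% and 2.26% of all placed genes. The 8 were Zfp185, Zfp296, Zfp365, Zfp385, Zfp488, Zfp533, Zfp800 and Zfp804a. Zfp385 and Zfp533 are older names of Zfp385a and Zfp385b, Zfp296 is known for aiding reprogramming to pluripotency, Zfp488 acts with Olig2 in oligodendrocytes, and Zfp185 is a LIM protein of the actin skeleton. Of these 8 genes, H3K27ac was called in limb at Zfp365, Zfp533 and Zfp800. The limb-only group held Zfp423, a cofactor-binding factor of cerebellum and fat, Zfp503, a repressor of striatum and hindbrain, Zfp536, which restrains neuronal differentiation, and Zfp609, which works with the Integrator complex in neural progenitors.

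SMARCA4 lay at 200 of 215 Zfp starts in at least 1 tissue, 93.0% (88.8% to 96.0%; all placed genes 79.7%), and any FLAG protein at 201, 93.5% (all 81.6%). The face list, the longest, held 191 of them, 88.8% (83.8% to 92.7%; other protein-coding genes 81.0%, all 74.1%). Without it SMARCA4 lay at 76.3% of Zfp starts. Of other protein-coding genes 13.5% had SMARCA4 in no tissue and 13.1% in face alone, against 6.98% and 16.7% of Zfp genes. Among genes with limb H3K4me3 the face shares were 96.9% and 93.9%, and the difference of 2.97 points had an interval from -0.61 to 5.0. The neural tube list held 128 (59.5%, all 54.8%), forebrain 80 (37.2%, all 30.8%), limb 63 (29.3%, all 26.8%), hindbrain 54 (25.1%, all 18.3%), heart 49 (22.8%, all 21.4%), ESC 22 (10.2%, all 6.77%) and midbrain 5 (2.33%, all 2.18%). Other protein-coding genes stood at 60.6%, 33.4%, 29.5%, 19.9%, 23.0%, 7.34% and 2.18% in the same order, all inside the Zfp intervals. The 49 heart starts were all among the 191 of face, as were 94.4% of the heart starts of other protein-coding genes.

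The other coactivators differed in how they met these genes. EP300 in face lay at 74 Zfp starts, 34.4% (28.1% to 41.2%), against 21.2% (20.5% to 21.9%) of other protein-coding genes and 19.3% of all. In ESC it lay at 93, 43.3% (36.5% to 50.2%), against 38.5% and 34.9%. NCOA2 in hindbrain lay at 67, 31.2% (25% to 37.8%), against 23.4% and 21.2%, and NCOA1 at 16, 7.44% (4.31% to 11.8%), against 5.62% and 5.1%. SMARCC2 in face lay at 42, 19.5% (14.5% to 25.5%), against 29.1% (28.3% to 29.9%) and 26.9%. All 42 also had SMARCA4 in face, as did 96.9% of the other protein-coding genes with SMARCC2, and at 41 the peaks overlapped. SMARCC2 in hindbrain lay at 1 Zfp start (all 0.556%).

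The controls marked the same starts, which limits what the FLAG shares say. At least 1 control list had a peak at 183 of 215 Zfp genes, 85.1% (79.6% to 89.6%; all placed genes 75.6%). The EP300 control of face held 170, 79.1% (all 65.3%), the SMARCA4 control of midbrain 160, 74.4% (all 66.5%), the NCOA2 control 55, 25.6% (all 25.9%), the NCOA1 control 12, 5.58% (all 2.66%), and the SMARCC2 controls of hindbrain and face 8 (3.72%, all 2.69%) and 0 (all 0.294%). Of the 12696 other protein-coding genes, the EP300 control held 9101, the midbrain control 9360 and the NCOA2 control 3657, so the all-gene shares are not the closest comparison. Of the 74 Zfp starts with EP300 in face, 64 had the EP300 control too, 86.5%, against 83.9% at other protein-coding genes. Every FLAG peak that overlapped a peak of any control list was then left out. A FLAG peak remained at 24.2% of Zfp genes and 26.1% of other protein-coding genes. The shares with EP300 in face became 2.33% and 1.39%. The control lists are from face, hindbrain and midbrain, so peaks of the other tissues and of ESC had no control of their own. The part that enriched input chromatin plays in the FLAG peaks at these starts was not tested.

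**Figure D2:**
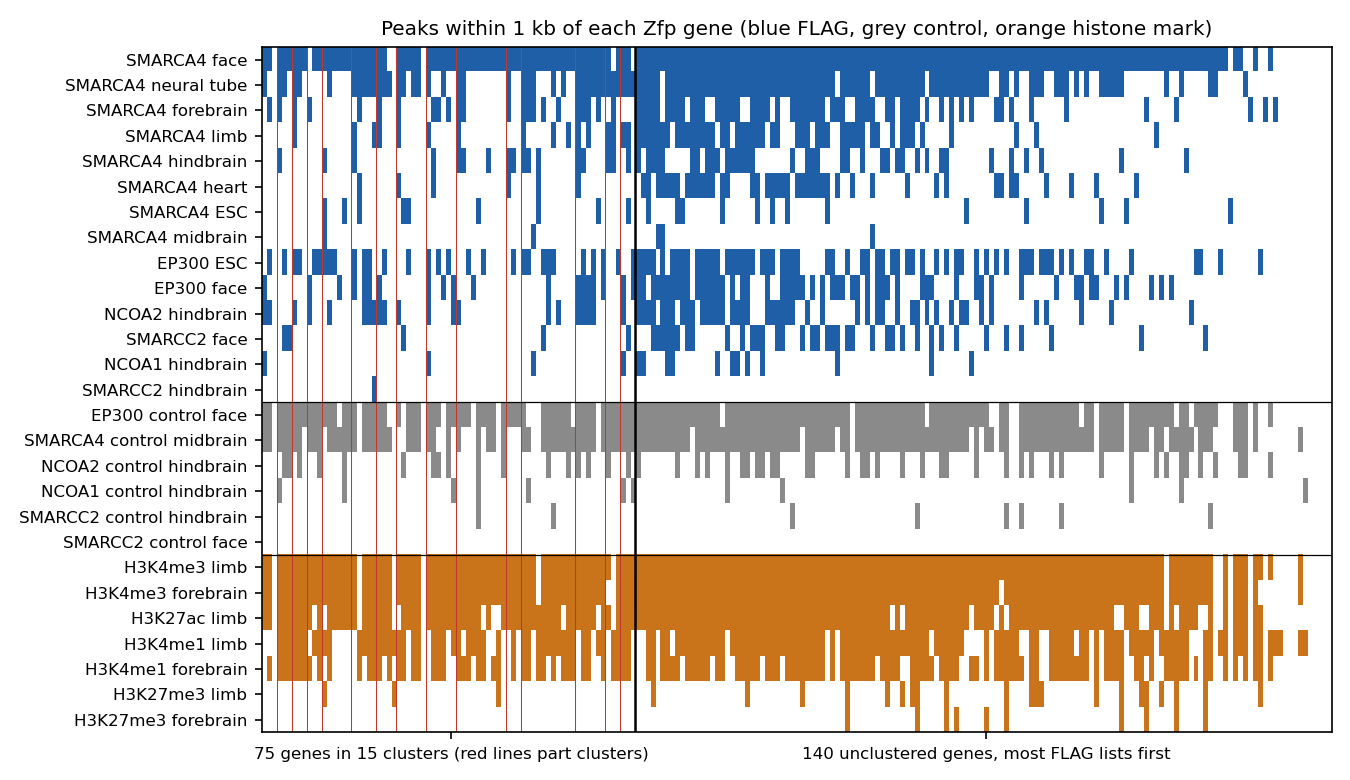
Each column is 1 of the 215 Zfp genes with a start point and each row a peak list; a filled cell marks a peak within 1 kb (blue FLAG, grey control, orange histone mark). The first 75 columns are the clusters, and the rows of SMARCC2 face and SMARCA4 heart are nearly empty there, with 5 and 6 filled cells.

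Clustered and unclustered Zfp genes were alike in the broadest lists and parted in a few. Limb H3K4me3 lay at 69 of 75 clustered genes, 92.0% (83.4% to 97.0%), and at 123 of 140 unclustered, 87.9% (81.3% to 92.8%), a difference of 4.14 points with a Newcombe interval from -5.76 to 12.4. SMARCA4 in face lay at 68, 90.7% (81.7% to 96.2%), and 123, 87.9%, a difference of 2.81 points (-7.4 to 11.4). Limb H3K27ac lay at 82.7% and 77.9%. SMARCC2 in face lay at 5 clustered genes, 6.67% (2.2% to 14.9%), and at 37 unclustered ones, 26.4% (19.3% to 34.5%). SMARCA4 in heart lay at 6, 8.0% (2.99% to 16.6%), and at 43, 30.7% (23.2% to 39.1%). The differences were -19.8 points (-29.0 to -8.92) and -22.7 points (-32.5 to -11.3). Both lists were singled out after all lists had been seen. Without the peaks that overlap a peak of any control list the differences were -2.14 points (-6.13 to 2.95) and -7.52 points (-15.3 to 1.74), on few genes. None of these control lists is from heart. Limb H3K27me3 lay at 3 clustered genes, 4.0%, and 21 unclustered, 15%, a difference of -11.0 points (-18.7 to -1.92), and forebrain H3K27me3 at 0 and 10. EP300 in face lay at 19 clustered genes, 25.3%, and 55 unclustered, 39.3%, a difference of -14.0 points (-26.7 to 0.029).

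The shares were also taken over starts with the same 3 limb marks, although the lists are from face and heart and neither H3K4me1 nor peak rank was matched. Among Zfp genes with limb H3K4me3 and H3K27ac and no H3K27me3, SMARCC2 in face lay at 5 of 61 clustered genes, 8.2% (2.72% to 18.1%), and 27 of 95 unclustered, 28.4% (19.6% to 38.6%). SMARCA4 in heart lay at 3, 4.92% (1.03% to 13.7%), and 39, 41.1% (31.1% to 51.6%). The 51 other protein-coding genes that lie between members of a cluster stood between the groups, with SMARCC2 in face at 9, 17.6% (8.4% to 30.9%), and SMARCA4 in heart at 10, 19.6% (9.82% to 33.1%). Chromosome 7 alone gave 4.35% for SMARCC2 in face at its 46 clustered genes, 21.4% at its 14 unclustered ones, with an interval from 4.66% to 50.8%, and 24.0% at 891 other protein-coding genes. Clustered genes elsewhere had it at 3 of 29.

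Peaks at clustered starts also ranked lower in several lists, where rank is given as a percentage of the list's length, 0 being strongest. The rank is the authors' where deposited and was otherwise taken from the authors' score. In SMARCA4 face the median rank was 38.8% at clustered and 22.3% at unclustered starts, in neural tube 42.9% and 24.1%, in forebrain 51.4% and 41.2%, in limb 75.3% and 49.5%, and in hindbrain 66.9% and 44.3%. EP300 in face went the other way, with 25.1% and 33.4%, as did NCOA2 with 39.1% and 44.3% and SMARCA4 in heart with 33.7% at 6 clustered peaks and 42.9%. Limb H3K4me3 stood at 25.9% and 20.3%, and limb H3K27ac at 22.3% and 18.8%. Among the 1000 peaks of best rank in SMARCA4 face, 0 lay at a clustered start and 10% of unclustered genes had one. Whether the low shares in heart and SMARCC2 follow from lower peaks in these libraries was not tested.

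**Figure D3:**
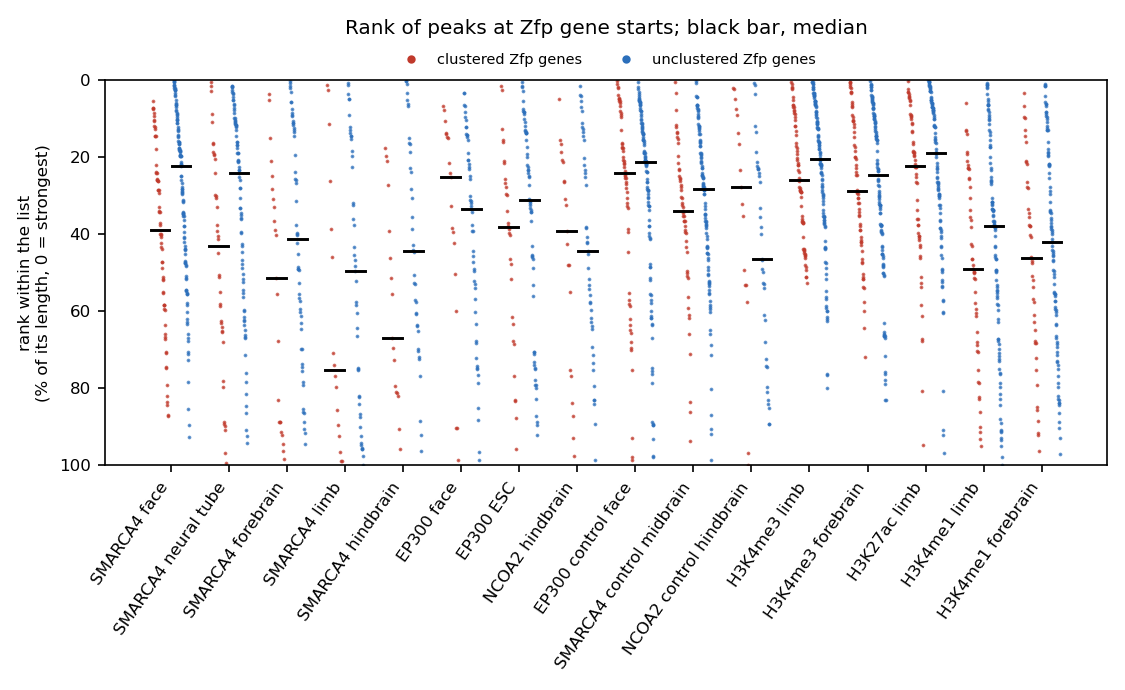
Rank of every peak at a Zfp start within its list (y axis, percent of the list's length, 0 at the top is the strongest), for clustered (red) and unclustered (blue) Zfp genes; within each strip the points run from best to worst rank, and black bars are medians. In the 5 SMARCA4 lists shown the clustered median is lower in strength, for example 38.8% against 22.3% in face.

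The largest cluster, chr7:30569808-30954746 (mm9, from the first to the last start point), held 11 genes: Zfp14, Zfp146, Zfp260, Zfp27, Zfp30, Zfp382, Zfp566, Zfp568, Zfp74, Zfp790 and Zfp82. SMARCA4 in face lay at all 11, in neural tube at 5 and in heart at 1, SMARCC2 in face at 1, limb H3K4me3 at 10 and limb H3K27ac at 10. Over all placed genes SMARCA4 lay in face at 74.1%, in neural tube at 54.8% and in heart at 21.4%. SMARCC2 in face lay at 26.9% of them, limb H3K4me3 at 74.7% and limb H3K27ac at 55.1%. A single cluster holds too few genes to be set apart from these shares. Zfp568, which represses a placental Igf2 transcript and is needed for gastrulation, had SMARCA4 in face, forebrain, hindbrain, limb and neural tube and EP300 in ESC. The second, chr7:24866962-25372660 with 10 genes, had SMARCA4 in face at all 10, in neural tube at 2 and in heart at 0, and limb H3K4me3 at 10. The cluster of 6 genes at chr7:134376768-135020309 had SMARCA4 in face and in neural tube at all 6. In the 6-gene cluster at chr17:32946798-33766046, SMARCA4 lay at 6 starts in face and 1 in neural tube. These 2 of the 4 clusters of 6 genes were chosen after their values were seen: alike in face, they differed in neural tube.

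Zfp genes had peaks in a median of 4 FLAG lists of 14, the same as other protein-coding genes, and at most 9. In no list were 14 Zfp genes, 6.51%, against 18.4% of all placed genes and 11.8% of other protein-coding genes. At 9 lists were 9 Zfp genes, 4.19%, against 2.12% and 2.31%. The mean was 3.48 lists at clustered and 4.46 at unclustered genes, against 3.75 at other protein-coding genes. SMARCA4 lay at 36 Zfp genes in face and in no other tissue, at 4 in forebrain alone, at 3 in neural tube alone and at 1, Zfp236, in ESC alone. These are 16.7% (12% to 22.4%), 1.86%, 1.4% and 0.465%, against 12.3%, 0.444%, 1.76% and 0.369% of all placed genes.

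**Figure D4:**
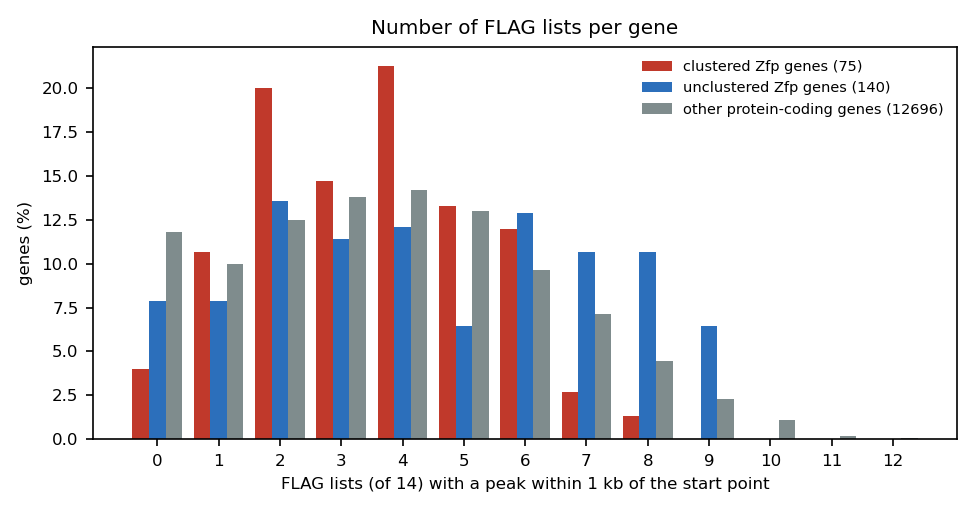
Percentage of genes (y axis) by the number of FLAG lists, of 14, with a peak within 1 kb of the start point (x axis), for clustered Zfp genes (red), unclustered Zfp genes (blue) and other protein-coding genes (grey). No clustered gene has more than 8 lists, and 6.43% of unclustered genes have 9.

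Of the 9 genes in 9 FLAG lists, 8 are named, those with the most FLAG peaks within 100 kb: Zfp423, Zfp532, Zfp341, Zfp143, Zfp1, Zfp62, Zfp64 and Zfp521. All are unclustered. Zfp423 had SMARCA4 at its start in face, forebrain, hindbrain, limb and neural tube, SMARCC2 and EP300 in face, EP300 in ESC and NCOA2 in hindbrain. The highest peak there held 158 tags for SMARCC2, 191 for EP300 in face, 12 for EP300 in ESC, 103 for NCOA2 and 42 for SMARCA4 in hindbrain, beside 38 in the EP300 control and 75 in the midbrain control. Zfp521, its paralogue in neural and blood progenitors, had SMARCA4 in all 7 embryonic tissues and none in ESC, and Zfp341 had it in every list but midbrain. At Zfp143 the EP300 face peak had 171 tags and the control peak 14, where the medians at Zfp starts were 96 and 19. The NCOA1 peak there had 47. Tags were not scaled for depth, so counts from different lists cannot be set against each other. Zfp64, which in human leukaemia maintains MLL expression, had 141 tags for SMARCC2 in face and 73 for SMARCA4 in heart.

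At the other end, 14 Zfp genes had no FLAG peak at the start, 6.51% against 18.4% of all placed genes. Zfp352 and Zfp353 had 0 FLAG peaks within 100 kb and no peak of any control or histone list within 1 kb either. Zfp418 had H3K4me3 in both tissues and a control peak of 9 tags but no FLAG peak. Zfp366, Zfp371 and Zfp498 had no FLAG or control peak at the start, though 14, 18 and 14 FLAG peaks within 100 kb. Zfp52 had none within 1 kb, and within 100 kb 3 peaks of SMARCA4 in forebrain and 1 each in face, neural tube and ESC.

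By role, the KRAB repressors of retroelements and imprinted genes had 4 of 8 listed genes placed. Zfp57, which protects imprints in the early embryo, had peaks in 7 FLAG lists, with SMARCA4 in face, forebrain, heart, limb and neural tube. Zfp445, which also maintains imprints, and Zfp809, which silences retroviruses in ESC, had 3 each, and both had EP300 in ESC. All 4, with Zfp568, had EP300 in ESC, SMARCA4 in neural tube, both large controls, H3K4me3 in both tissues and H3K27ac at the start. Of all placed genes 34.9% had EP300 in ESC, 54.8% SMARCA4 in neural tube, and 65.3% and 66.5% the EP300 face and midbrain controls. H3K4me3 in both tissues lay at 72.0% and limb H3K27ac at 55.1%. The 4 genes are too few to set against these shares. The retrovirus repressor Zfp819 could not be placed: its only row was SMARCA4 in ESC, 1479 bp from the authors' start.

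Of 15 listed developmental regulators 12 were placed under those names, with SMARCA4 in face at 11, in neural tube at 9, in forebrain at 8, in heart at 7 and in limb at 6, SMARCC2 in face at 6 and limb H3K27me3 at 5. Over all placed genes the shares were 74.1%, 54.8%, 30.8%, 21.4%, 26.8%, 26.9% and 29.1% in the same order. Zfp238, a repressor of cortical neuron development, had SMARCA4 in ESC, face, forebrain, heart, limb and neural tube and EP300 in none. Zfp462 had a SMARCA4 midbrain peak of 171 tags and a midbrain control peak of 24, where the medians at Zfp starts were 88 and 26. Of 18 broadly acting genes 13 were placed, and SMARCA4 lay in face at 13, in neural tube at 12 and in heart at 6, and EP300 in face at 7. The shares over all placed genes were 74.1%, 54.8%, 21.4% and 19.3%. Limb H3K27me3 lay at 0 of the 13, against 11.2% of all Zfp genes with a start point and 29.1% of all placed genes. With 13 genes, chosen with earlier results known, this does not set them apart from the other Zfp genes. Zfp148 and Zfp281, which bind GC-rich promoters, had 8 and 5 FLAG lists, and Zfp622, a ribosome assembly factor, had 2, with no H3K4me3.

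The CCCH genes Zfp36, Zfp36l1 and Zfp36l2, which mark AU-rich messages for decay, all had SMARCA4 at the start in face and heart. Of all placed genes 74.1% and 21.4% had it there. The heart peak at Zfp36l1 held 232 tags, the most of any heart peak at a Zfp start, where the median was 48. Zfp36 had 72 and Zfp36l2 had 45. Within 100 kb each of the 3 had 7 SMARCA4 heart peaks, against a mean of 2.0 over all Zfp genes and 2.38 over other protein-coding genes. Heart was not alone in this. The 3 genes had a mean of 8.0 SMARCA4 neural tube peaks and 19.3 limb H3K4me1 peaks, against 3.08 and 7.73 over all Zfp genes. EP300 in face went the other way, with 0.667 against 1.21. None had SMARCA4 in ESC, hindbrain or midbrain at the start, where 6.77%, 18.3% and 2.18% of all placed genes had it. With 3 genes these absences show no tissue pattern.

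In ESC, SMARCA4 and EP300 shared 9 Zfp starts, 40.9% of the 22 with SMARCA4 and 9.68% of the 93 with EP300, and at 0 of the 9 did the peaks overlap. At other protein-coding genes 99 of 448 shared starts had overlapping peaks. The median distance of the peak from the start point was 391 bp for SMARCA4 and 196 bp for EP300. Peaks there had a median of 9 and 8 tags, so that these calls rest on few reads.

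**Figure D5:**
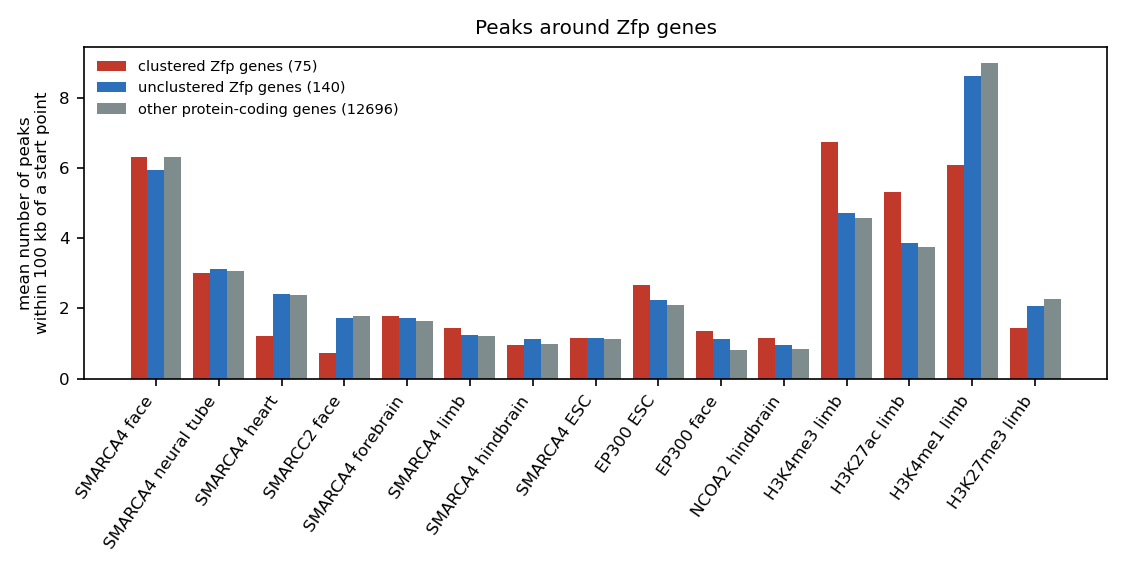
Mean number of peaks within 100 kb of a start point (y axis) in 15 lists (x axis) for clustered Zfp genes (red), unclustered Zfp genes (blue) and other protein-coding genes (grey). Clustered genes have 6.75 limb H3K4me3 peaks against 4.73 and 4.58, and 0.747 SMARCC2 face peaks against 1.74 and 1.79.

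Within 100 kb, Zfp genes had a mean of 6.07 SMARCA4 face peaks with an SD of 3.29, a median of 6 and a highest value of 16, against 6.3 at other protein-coding genes. Neighbouring genes share territory, so the genes are not independent. Clustered genes stood at 6.32 and unclustered at 5.94. SMARCA4 in heart numbered 1.23 and 2.42, SMARCC2 in face 0.747 and 1.74, limb H3K4me1 6.09 and 8.61, and limb H3K4me3 6.75 and 4.73. EP300 in face numbered 1.35 and 1.14, against 0.824 at other protein-coding genes. Zfp523, Zfp536 and Zfp623 had 16 SMARCA4 face peaks each, Zfp608 had 14 in heart, Zfp385 11 and Zfp217 10. Zfp219 and Zfp423 had 7 in forebrain, and Zfp503 had 5 in hindbrain.

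Zfp starts were shared with a neighbour about as often as those of other genes. The start point of another gene lay within 1 kb at 19 of 215, 8.84% (5.4% to 13.5%), against 7.59% of other protein-coding genes, and 0 of these neighbours was a Zfp gene. The 19 Zfp symbols without a start point had 1 table row each, except Zfp740 with 2. Their closest row lay within 1 kb of the authors' start at 11 of them, among them Zfp111, Zfp160, Zfp457 and Zfp84, each with an EP300 face peak, and Zfp92 had a control peak 9608 bp away alone.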

How the data were processed

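The authors deposited peak lists, mapped to mm9 with BWA per the submitters' processing notes; the BWA version and the peak caller are not given in the sources used here. Of the lists, 16 are tables that give, per the file headers, the nearest gene and its distance, the summit, a count of tags, a score, a fold enrichment, a false discovery rate in percent and a conservation value; the other 14 hold positions and a rank. The score, tags and fold, and the rank in the other 14 lists, are the authors' deposited values and describe peaks within a list alone. In the 16 tables the rank was worked out here from the score, highest first. Peaks were called per library, and total depths are unknown.

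Start points were worked out as summit plus or minus distance on which at least 2 distinct peaks agree; 34 Zfp genes had several, and all were kept. A peak counted at a start when its nearest edge lay within 1000 bp, and in a territory within 100 kb. The start points are known only for genes the tables name. Zfp genes were matched to RefSeq by symbol, or by synonym for 26. Intervals are exact 95% Clopper-Pearson and, for differences, Newcombe intervals, and cover counting error only. With 1 library a condition no p-value was computed. The counting was tested on simulated peaks. Python 3.11.15, pandas 2.3.3, numpy 2.4.6 and scipy 1.17.1 were used.

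Named genes are the role lists, the 8 in the most FLAG lists, up to 8 with H3K27me3 in both tissues, up to 8 with no FLAG peak, the 3 with the most SMARCA4 peaks within 100 kb in each list, the largest clusters, and genes with SMARCA4 in 1 tissue alone; some are given as counts. The members and lists were chosen with earlier results of these data known. Alternatives varied the distance, the peak position, the rank, the agreement needed for a start point and the cluster distance. Others left out FLAG peaks that overlap a peak of any control list, whatever its tissue, left out the CCCH genes, or counted genes that share a start point once.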

Additional observations from a re-analysis of the deposited data

How the results depend on the processing

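Under the alternatives, 138 comparison values moved by less than the counting error, 27 moved by more and 1 reversed. Part of the 138 could move little or not at all. Counting genes that share a start point once removed none of the 215, and leaving out the CCCH genes kept 212. Cluster differences whose intervals held 0 could change sign, as limb H3K4me3 did to -4.86 points with the 1000 best peaks and SMARCA4 face to -1.91 among genes with limb H3K4me3. Taking the 1000 peaks of best rank per list gave shares of 37.7% for any FLAG, 20.5% for SMARCA4, 16.3% for controls, 11.2% for limb H3K4me3 and 0.465% for limb H3K27me3. It gave clustered against unclustered differences of -10 points for SMARCA4 face, -2.14 for SMARCC2 face, -2.86 for heart and -0.714 for limb H3K27me3. Against other protein-coding genes it gave -6.1 points for limb H3K27me3, 8.39 for H3K27ac and 1.94 for SMARCA4 face, and a mean of 0.214 SMARCA4 face peaks within 100 kb. Leaving out FLAG peaks that overlap a control peak gave 24.2% for any FLAG and 20.9% for SMARCA4, cluster differences of -2.14 points for SMARCC2 face, -7.52 for heart and 0.524 for EP300 face (-14.0 with all peaks), and a mean of 2.02 peaks. Against other protein-coding genes it gave 0.173 points for SMARCA4 face, 0.931 for EP300 face and, reversed in sign, -1.92 for any FLAG. Without the SMARCA4 face list the shares were 87.9% and 76.3%. Start points worked out without the counted list's own table gave 75.8% for controls. The mean SMARCA4 face count became 3.43 within 50 kb and 5.16 without peaks within 1 kb, and peak midpoints gave -12.6 points for limb H3K27me3 against other protein-coding genes. Fewer peaks enter by construction when the 1000 best are taken or overlaps with control peaks are left out. Otherwise the cause was not tested. Short lists such as SMARCA4 midbrain and NCOA1 limit what shares can show. No paired analysis was possible because each condition had 1 library.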
